A study of Mus musculus with 12 samples.

Results

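The state that C2C12 cells passed through at day 2 of differentiation was examined: transcripts that stood higher or lower at day 2 than both before it, in proliferation, and after it, at day 5. C2C12 is an immortalised mouse myoblast line whose cells leave the cell cycle, elongate and fuse into myotubes once serum is lowered. In proliferation the cells had 10% fetal bovine serum and reached 80 to 90% confluence, and the other stages were sampled 2, 5 and 8 days after a change to 2% horse serum. Each stage has 3 one-colour arrays, called arrays 1 to 3, so 9 arrays entered the comparison of day 2 with its neighbours and the 3 day 8 arrays served as a later view of the same probes. The cells of all stages are the same line, and a change in a share of the cells cannot be told apart from a change within each cell. The series design speaks of independent experiments, but nothing ties an array to a culture, so a p value reflects only how the arrays vary, which may be technical.

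Of 37246 probes on the array, 22959 were bright enough on all arrays of at least 1 stage to be tested. Members are the tested probes whose 3 day 2 arrays lay all above, or all below, the 6 arrays of proliferation and day 5. There were 2642 (11.5% of tested probes), 1619 above (7.05%) and 1023 below (4.46%). By gene, each read from its brightest tested probe, they were 1670 of 13742 tested genes, 1132 above (8.24%) and 538 below (3.92%), out of 19259 genes named on the array. Because that choice uses the values, the separation itself is a description. At the edge of the rule, Ssna1 was the closest member, with stage means of 2.84 in proliferation, 3.27 at day 2 and 2.75 at day 5, and Ahcyl2 the closest probe left out, with 2.61, 2.31 and 2.69. Levels are given throughout as relative log2 signal, the log2 signal minus the array's 75th percentile, and are compared only within a probe. A probe was called transient where limma, fitted over all tested probes and 12 arrays, gave an adjusted p under 0.05 for day 2 against proliferation and for day 2 against day 5 with the same sign, and the arrays were separate as above.

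In C2C12 cells, cell cycle exit and early commitment come before most fusion. The myogenic factor MyoD acts with E proteins, and the Id proteins hold E proteins away from it. The sterol genes that recur below make up the mevalonate pathway, which turns acetyl-CoA into cholesterol; in mammals the transcription factor SREBP2 raises its enzymes together when membrane cholesterol is low, and NF-Y bound to CCAAT boxes assists it.

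The labels were checked with muscle genes. Myog, the myogenic factor that starts terminal differentiation, read -1.17, -0.56 and -1.06 in proliferation, 1.76, 2.41 and 1.5 at day 2, 6.44, 6.73 and 6.63 at day 5 and 4.96, 5.32 and 5.23 at day 8. Ckm, muscle creatine kinase, and Mymk, a membrane protein of myoblast fusion, likewise lay at day 2 between proliferation and day 5 on every array. They differ from day 5 by -4.96 and -4.33 log2 at day 2 and are not transient genes.

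The average contrast called many more probes than the reversal did. Day 2 differed from the average of its neighbours for 4686 of 22959 probes (20.4%), 2701 higher (11.8%) and 1985 lower (8.65%; limma, adjusted p under 0.05). By gene the contrast called 1889 of 13742 higher (13.7%) and 1095 lower (7.97%). Transient calls went to 1147 probes (5.00%), 672 higher at day 2 (2.93%) and 475 lower (2.07%), which is 24.9% of the contrast's higher calls and 23.9% of its lower calls. Of the remaining higher calls, 1103 probes differed from day 5 only and 780 from proliferation only. Cell cycle genes show this: 22 of 28 tested mitosis genes were called higher in the contrast, yet their median differed from proliferation by -0.26 and from day 5 by 2.50, and of these genes only Bub1b, a spindle checkpoint kinase, had a transient call, which 9 of 20 other settings ended. In 31 tested S-phase genes the medians were -0.29 and 1.58, with 19 contrast calls and 0 transient calls. Sarcomere genes were another case, with 29 of 39 called lower in the contrast and medians of 1.23 against proliferation and -4.08 against day 5. Of the 39, 26 were called above proliferation at day 2 and 35 below day 5, so most differences were steps of a rise.

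**Figure D1:**
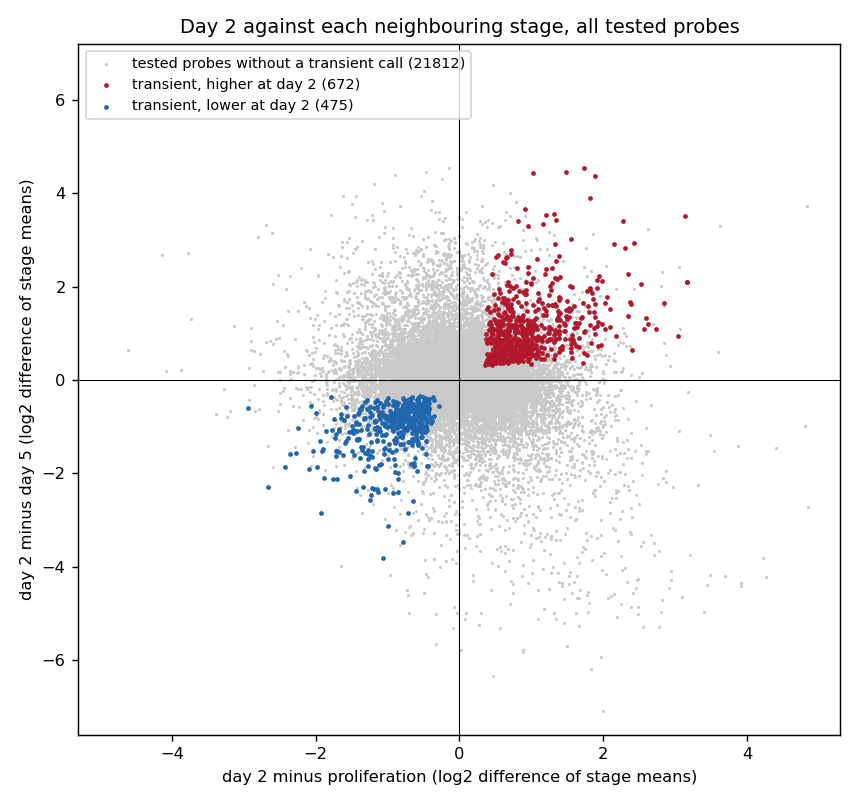
Each point is 1 of 22959 tested probes, placed by the log2 difference of day 2 from proliferation (horizontal) and from day 5 (vertical). The 672 red points (transient, higher at day 2) fill part of the upper right quadrant and the 475 blue points (lower at day 2) part of the lower left, while the longest tail of grey points runs into the lower right, above proliferation but below day 5.

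Transient differences were mostly small. The smaller of a probe's 2 differences had a median of 0.67 log2 in both directions (quartiles 0.53 and 0.92 for higher probes, 0.53 and 0.89 for lower), and both differences reached 1 log2 for 141 higher and 91 lower probes. Over all tested probes the median difference of day 2 was 0.07 from proliferation and 0.09 from day 5. Among mRNA probes 552 were higher (3.39% of those tested) and 301 lower (1.85%), whereas in the non-coding set, which holds transcripts known by clone or browser accessions, 120 were higher (1.79%) and 174 lower (2.60%). Counted as genes, 475 of 13742 were higher (3.46%) and 240 lower (1.75%). Another probe of the gene pointed the other way for 3 of the 53 higher and 1 of the 49 lower genes that had one.

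Slide and stage overlapped in part. The proliferation arrays and day 2 array 1 shared the first slide, day 2 arrays 2 and 3 shared the second with day 5 arrays 1 and 2, and day 5 array 3 lay with the day 8 arrays on the third. With the slide as a block, day 2 is compared with proliferation through 1 day 2 array within the first slide and with day 5 through 2 arrays each within the second, and 249 higher (1.08%) and 117 lower probes (0.510%) were called, of which 245 and 112 also had the call without the block. For genes the counts were 175 (1.27%) and 56 (0.408%). Signals of arrays of a stage correlated at 0.985 to 0.994, and 56.9% to 69.5% of spots per array were well above background. The median signal of the negative probes was 6.25, 5.39 and 2.42 on the proliferation arrays and between 1.39 and 3.53 on those of day 2 and day 5. Its part in the lower calls of dim probes was not tested.

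The day 8 arrays, which the rule did not use, mostly stayed on the side of the neighbours. All 3 day 8 arrays lay below all 3 day 2 arrays for 600 of the 672 higher probes (89.3%; 37.5% of all tested probes did so), and above them for 448 of the 475 lower probes (94.3%, against 24.6%). Both comparisons share the day 2 arrays with the rule, so these shares are a description. Relative to proliferation, day 8 had a median of -0.08 log2 for the higher probes, with 139 called higher and 193 lower (limma; 25.3% and 29.6% of all tested probes were). For the lower probes the median was 0.34, with 189 called higher and 37 lower.

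Sterol and fatty acid synthesis was the gene list with the most transient calls. Of its 33 tested genes, 21 were called higher at day 2 (63.6%; 3.46% of all tested genes were) and 0 lower. 17 of the 21 were also called with the slide as a block (1.27% of all genes), and the count was 19 to 22 when any 1 array was left out. The list's median differences were 1.06 log2 from proliferation and 1.01 from day 5, beside 0.10 and 0.11 over all tested genes, and within slides they were 1.01 and 1.03. All 3 day 8 arrays lay below all 3 day 2 arrays for each of the 21 genes. The return was not always complete: against proliferation, day 8 was called higher for 9 of them, lower for 2 and neither for 10 (limma). Spots that the scanner software marked as non-uniform were kept: without them 6 of the 21 genes still had a value and 5 of these kept the call.

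The regions before the transcription starts of 5 of these genes are shown first. This is because the called genes were higher together, and CCAAT boxes are a feature the rule did not use. The 5 come from 13 called genes with such a region on hand, and all 5 hold CCAAT. They are examples and do not stand for the 13. Mvk, shown here, holds 5 CCAAT and had a smaller difference of 1.17 log2. Pmvk, with 1.35, is not shown, and it has 1 CCAAT in 1 region and 0 in another. Acly and Acaca, also called, hold no CCAAT in theirs. Sequences are the 250 bases before the start, 5′ to 3′ on the gene's strand, from RefSeq on GRCm38.p6. Capitals mark CCAAT in either orientation (ATTGG on the other strand), and TCACNCCAC, a sterol element core, which Hmgcs1 holds.
Hmgcs1, chr13:119690101-119690350, plus strand: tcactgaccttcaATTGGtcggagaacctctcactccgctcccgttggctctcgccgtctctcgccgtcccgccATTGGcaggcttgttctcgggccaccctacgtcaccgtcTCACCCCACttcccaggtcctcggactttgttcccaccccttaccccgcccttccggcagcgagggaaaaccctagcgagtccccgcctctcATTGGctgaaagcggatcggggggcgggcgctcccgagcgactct
Mvk, chr5:114444019-114444268, plus strand: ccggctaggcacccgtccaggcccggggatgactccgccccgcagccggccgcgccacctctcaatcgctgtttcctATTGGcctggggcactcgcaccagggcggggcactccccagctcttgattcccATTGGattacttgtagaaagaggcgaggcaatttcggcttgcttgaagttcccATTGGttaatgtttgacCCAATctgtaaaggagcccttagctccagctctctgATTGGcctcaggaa
Insig1, chr5:28071162-28071411, plus strand: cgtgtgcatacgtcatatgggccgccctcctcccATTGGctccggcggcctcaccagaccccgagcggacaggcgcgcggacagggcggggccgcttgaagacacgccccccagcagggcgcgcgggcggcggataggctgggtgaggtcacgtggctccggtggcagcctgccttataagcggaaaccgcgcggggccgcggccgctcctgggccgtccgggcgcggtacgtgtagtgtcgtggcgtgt
Lss, chr10:76531355-76531604, plus strand: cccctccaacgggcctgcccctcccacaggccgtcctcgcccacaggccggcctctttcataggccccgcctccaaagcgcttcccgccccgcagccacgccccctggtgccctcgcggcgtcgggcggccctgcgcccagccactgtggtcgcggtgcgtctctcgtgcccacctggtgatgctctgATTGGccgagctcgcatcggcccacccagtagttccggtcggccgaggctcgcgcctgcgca
Nsdhl, chrX:72918271-72918520, plus strand: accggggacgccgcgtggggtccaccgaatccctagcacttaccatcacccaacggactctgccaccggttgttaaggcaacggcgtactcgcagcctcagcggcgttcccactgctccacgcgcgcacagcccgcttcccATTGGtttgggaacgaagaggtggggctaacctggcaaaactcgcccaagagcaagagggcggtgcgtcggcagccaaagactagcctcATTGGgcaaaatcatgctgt

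Promoter windows were on hand for 13 of the 21 called genes and for 10921 of the 13742 tested genes, and a gene with several starts counts where any window has the motif. CCAAT, searched on both strands, occurred in 11 of the 13 called genes (84.6%), in 191 of 379 genes called higher (50.4%), in 61 of 172 called lower (35.5%) and in 40.5% of the tested genes with a window. Over all 32851 promoter windows the share was 33.8%. Among list members without a transient call it occurred in 5 of 8 (62.5%). TCACNCCAC occurred in 1 of the 13, in 1.21% of tested genes and in 1.05% of all windows. GGGCGG, a GC box, occurred in 10 of the 13 (76.9%), in 7 of 8 list members without a transient call (87.5%), in 64.5% of genes called lower, in 59.1% of tested genes and in 32.7% of all windows. TGACGTCA, a cyclic AMP element, was in 0 of the 13, in 2.74% of tested genes and in 1.55% of all windows, with 8 of 172 among those called lower (4.65%) and 4 of 379 among those called higher (1.06%). All 4 motifs were searched on both strands, CCAAT and the others may overlap, and a match describes letters in a window.

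The members are taken in the order of the pathway. Hmgcs1, the cytosolic HMG-CoA synthase, read 3.91, 3.37 and 3.45 in proliferation, 4.55, 4.96 and 4.93 at day 2, 3.66, 3.63 and 4.12 at day 5 and 4.14, 4.16 and 4.39 at day 8. Every day 2 array stood above every other array of the gene, and day 2 was 2.35-fold proliferation and 2.01-fold day 5 (limma adjusted p = 0.0012 and 0.00251).

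The mevalonate kinases and the decarboxylase came next. Mvk, mevalonate kinase, was 2.76-fold proliferation and 2.25-fold day 5, and Pmvk, which adds the next phosphate, was 2.88-fold and 2.55-fold. Mvd, the decarboxylase that makes isopentenyl diphosphate, read 1.73, 1.97 and 2.08 in proliferation, 4.06, 4.13 and 3.86 at day 2, 2.96, 2.89 and 2.81 at day 5 and 2.93, 2.92 and 3.01 at day 8. Its fall after day 2 was incomplete: day 8 remained 1.03 log2 above proliferation (limma adjusted p = 6.31e-05). Idi1, the isomerase that follows, had no transient call, with differences of 0.32 from proliferation (adjusted p = 0.277) and 0.92 from day 5 (adjusted p = 0.00753).

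Fdps, which builds farnesyl diphosphate, and Fdft1, squalene synthase, were both called. Fdps was 3.19-fold proliferation and 2.33-fold day 5, and Fdft1 3.55-fold and 1.73-fold. Sqle, squalene epoxidase, was 1.71-fold and 2.04-fold. Lss, lanosterol synthase, gave the largest smaller difference of the list: it read -0.31, 0.16 and 0.23 in proliferation, 1.94, 2.07 and 1.80 at day 2, -0.31, -0.12 and -0.21 at day 5 and -0.12, -0.00 and -0.06 at day 8. The nearest of the 9 other arrays thus lay more than 1 log2 under the lowest day 2 array, and day 2 was 3.75-fold proliferation and 4.44-fold day 5 (limma adjusted p = 2.82e-05 and 2.6e-06).

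Enzymes that turn lanosterol into cholesterol were also higher at day 2. Nsdhl, a decarboxylating dehydrogenase, read -5.31, -5.47 and -5.23 in proliferation, then -3.51, -3.54 and -3.59 at day 2, then -4.78, -5.06 and -5.54 at day 5, and -5.19, -5.33 and -5.45 at day 8. The day 2 arrays did not overlap with any other, day 2 was 3.45-fold proliferation and 2.99-fold day 5 (limma adjusted p = 8.48e-05 and 6.24e-05), and day 8 differed from proliferation by 0.01 log2. Dhcr7, Cyp51 and Hsd17b7 were 3.18-fold, 2.01-fold and 2.01-fold proliferation and 1.87-fold, 2.03-fold and 1.93-fold day 5. Cyp51, the lanosterol demethylase, was back at the proliferation level at day 5 (-0.01 log2, adjusted p = 0.95) and higher again at day 8. At day 8 it was 0.79 log2 above proliferation, and Dhcr7, a sterol reductase, 0.90 log2 (limma adjusted p = 0.000189 and 0.00024). Msmo1, a methyl oxidase, separated on all arrays but had no call (0.65 from proliferation, adjusted p = 0.0737).

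Regulators of the pathway split. Insig1, the ER anchor that SREBP itself induces, read 3.21, 3.37 and 3.19, then 5.01, 5.07 and 5.08 at day 2, then 3.76, 3.46 and 3.57 at day 5, and 3.67, 4.05 and 3.31 at day 8. It was 3.48-fold proliferation and 2.75-fold day 5 (limma adjusted p = 7.1e-05 and 9.48e-05). Neither SREBP gene was transient: Srebf2 differed from proliferation by 0.17 log2 (adjusted p = 0.653), and Srebf1 was 1.51 above proliferation (adjusted p = 2.76e-05) and -0.26 from day 5 (adjusted p = 0.136). Abca1, the sterol exporter, rose throughout, by 2.00 at day 2 and 4.16 at day 8 relative to proliferation.

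Outside the list, Acat2, the cytosolic acetoacetyl-CoA thiolase at the head of the pathway, was among the 20 leading genes, at 3.71-fold proliferation and 3.09-fold day 5 (limma adjusted p = 2.76e-05 and 1.44e-05). Mmab, an enzyme of cobalamin metabolism next to Mvk on chromosome 5, was 1.33 log2 above proliferation and 1.00 above day 5. In fatty acid synthesis Acaca, acetyl-CoA carboxylase, was 1.78-fold proliferation and 1.54-fold day 5. Fasn, fatty acid synthase, was 2.95-fold and 1.39-fold, but its call was lost under 15 of 19 other settings. Acly, Fads1, Fasn and Stard4 were the 4 genes without a call in the slide block. The desaturases Scd1 and Scd2 were 1.06 and 0.83 above proliferation and differed from day 5 by 0.02 and -0.04, without a transient call.

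**Figure D2:**
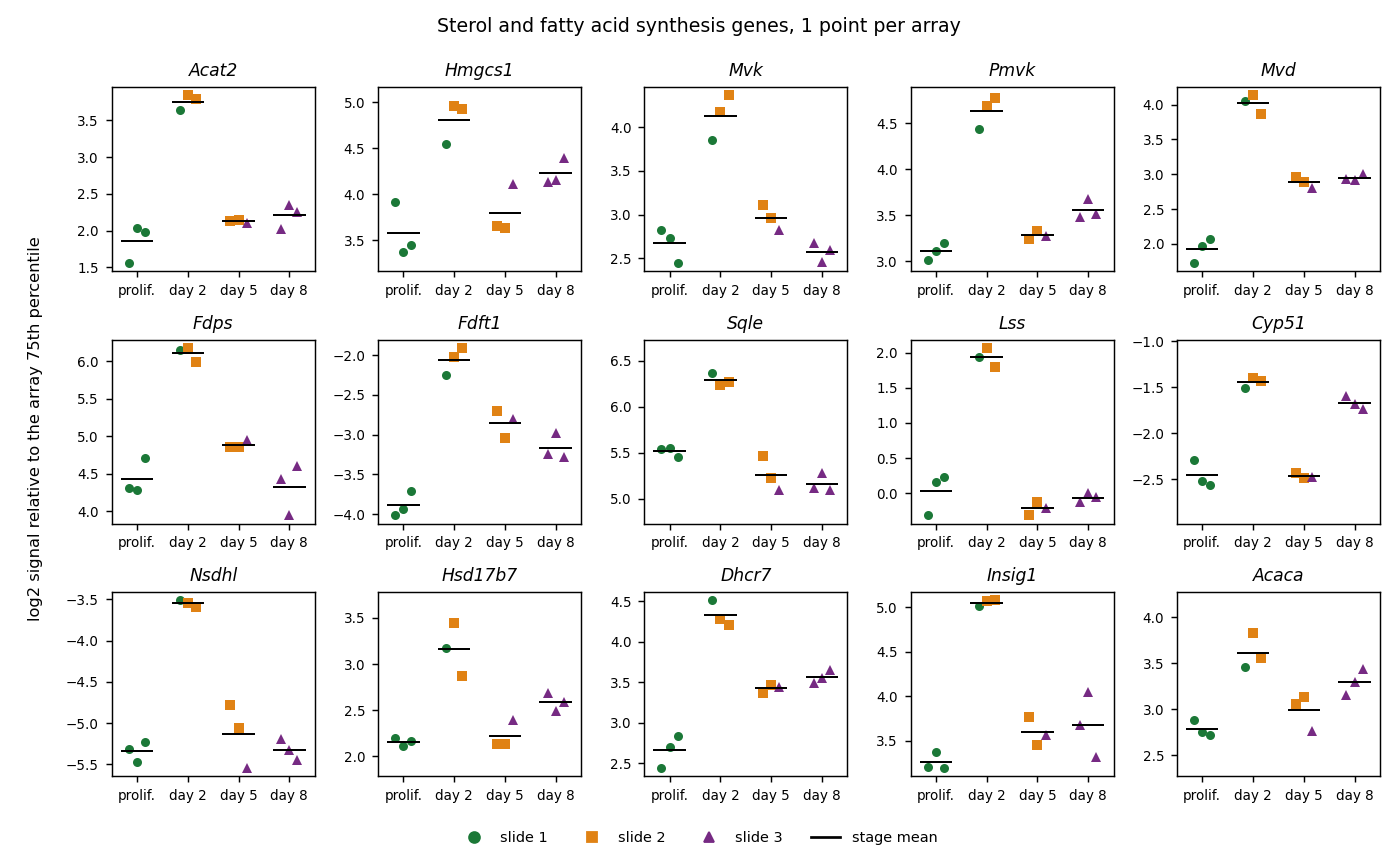
Relative log2 signal of 15 sterol and fatty acid synthesis genes on every array (colour and shape give the slide, the bar is the stage mean; vertical axes differ between panels and span at least 2 log2 units). In each panel the 3 day 2 points lie above all 9 others.

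Beyond sterol synthesis, the genes leading by their smaller difference came from several families. Of the 20 leading mRNA genes higher at day 2, which include Lss, Acat2 and Nsdhl, 17 kept the call with the slide as a block, and 14 kept it under every other setting that gave a value. Among the 17 are Rims4 and H2ac6, whose kept calls rest on 1 high array, day 2 array 1. Krt8, a simple-epithelial keratin, read -2.89, -2.93 and -2.75 in proliferation, -0.76, -0.97 and -1.0 at day 2, -2.88, -3.02 and -3.50 at day 5 and -3.40, -3.58 and -3.56 at day 8. It was 3.85-fold proliferation and 4.67-fold day 5 (limma adjusted p = 3.2e-05 and 3.07e-06), with no overlap between day 2 and any other array. Dnaaf3, a factor that assembles the dynein arms of cilia, was 3.94-fold and 4.39-fold. Defb36, a beta-defensin, read -5.31, -5.28 and -5.27, then -2.99, -2.44 and -3.12 at day 2, then -5.65, -5.98 and -5.74 at day 5, and -5.70, -5.85 and -5.73 at day 8.

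Tesc, a calcium-binding protein of the calcineurin B-like family, was 3.52-fold proliferation and 3.95-fold day 5, and Ifitm1, an interferon-induced membrane protein, 3.40-fold and 3.76-fold. Fam180a was 4.07-fold and 3.15-fold, and Fam151a, well above background on 1 of 3 proliferation arrays, 4.14-fold and 3.41-fold. Mcpt8, a mast cell protease gene, read 0.79, 1.11 and 0.88 in proliferation, 2.33, 2.71 and 2.94 at day 2, -1.74, -2.24 and -1.69 at day 5 and 0.44, 0.65 and 0.15 at day 8. Day 5 was here the lowest stage, day 2 being 23.4-fold day 5 and 3.32-fold proliferation, and day 8 lay again near proliferation (-0.52 log2, limma adjusted p = 0.057). Its neighbours on chromosome 14, Gzme and Gzmd of the granzyme family, were 1.19 and 1.29 log2 above proliferation and 2.27 and 2.40 above day 5. Probes of near-identical genes such as Gzme and Gzmd may take up each other's transcripts.

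Some of the leading genes were dim. Sohlh1, a helix-loop-helix factor known from germ cells, had the largest smaller difference, but it was well above background at day 2 only, where it read -5.67, -5.84 and -3.20. It was at least 3.05-fold proliferation and at least 5.44-fold day 5, and lost its call with the slide block (adjusted p = 0.0767 against proliferation). Rims4, a synaptic active-zone protein, Klrd1, a natural killer cell receptor subunit, and H2ac6 each rested on a single high array or on dim spots, the high array being day 2 array 1 in Rims4 and H2ac6, and lost the call under 10, 14 and 6 of 20 other settings. Ccna1, the germline A-type cyclin, was at least 6.84-fold day 5 and read -4.42, -5.08 and -4.23 at day 2. Only 1 of its 3 proliferation arrays was well above background, so its 3.70-fold difference from proliferation is uncertain in size. It lost the call under 2 of 20 other settings, with the slide block and without proliferation array 1. A530016L24Rik, a gene of no named function, and Chst8, a sulfotransferase that was at least 2.10-fold proliferation, were also among the leading 20.

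**Figure D3:**
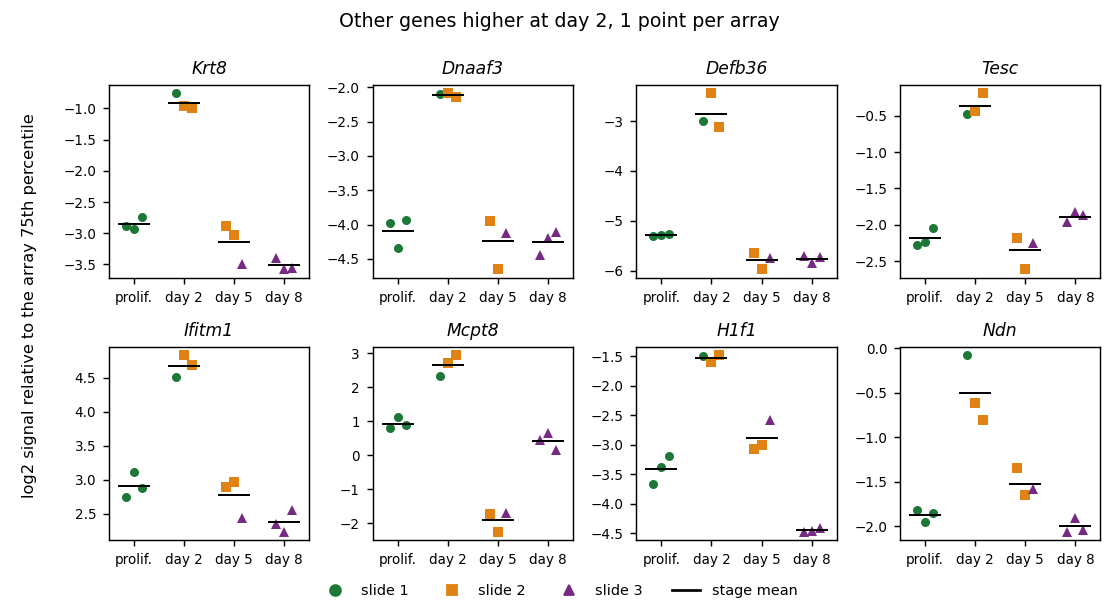
Relative log2 signal of 8 other genes higher at day 2 on every array (marks as in the plot of sterol genes). Day 2 stands apart in all 8 panels; Mcpt8 is lowest at day 5 and H1f1 lowest at day 8.

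Replication-dependent histones, whose messages lack a poly(A) tail, were a second group with several higher members. 7 of 52 tested genes were called (13.5%, against 3.46% of all genes). 3 kept the call with the slide block (1.27% of all genes were called there): H1f1, H2ac6 and H2ac8. For H2ac6 the kept call rests on day 2 array 1. 15 stood above both neighbours on all arrays (8.24% of all genes did). H1f1, a linker histone, read -3.67, -3.38 and -3.19, then -1.5, -1.60 and -1.49 at day 2, then -3.07, -3.0 and -2.58 at day 5, and -4.47, -4.46 and -4.40 at day 8, which made day 2 3.69-fold proliferation and 2.55-fold day 5 (limma adjusted p = 3.59e-05 and 9.68e-05). H2ac8, a core histone of the cluster on chromosome 13, was 1.59-fold and 2.90-fold. H2ac6 was not well above background on any proliferation array and was at least 2.27-fold higher at day 2. Its day 8 arrays read -4.31, -4.81 and -4.94, above day 2 arrays 2 and 3 (-6.16 and -6.48) and below array 1 (-3.44). H2bc18 was 1.61-fold and 3.29-fold, and H2bc8, H2bc9 and H2bc23 were 1.62-fold, 1.65-fold and 1.62-fold proliferation. Histone genes of a type are near copies of each other. The list medians were 0.28 from proliferation and 1.24 from day 5.

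Cell cycle inhibitors held 2 genes called higher of 14 (14.3%, against 3.46% of all genes), both kept with the slide block (1.27% of all genes). Cdkn2c, the CDK4/6 inhibitor p18, read 3.88, 4.11 and 4.17 in proliferation, 4.79, 4.74 and 4.85 at day 2, 3.81, 4.12 and 3.90 at day 5 and 3.70, 3.80 and 3.82 at day 8. It was 1.67-fold proliferation and 1.80-fold day 5 (limma adjusted p = 0.00199 and 0.000479), without overlap. Ccng2, an unconventional cyclin of quiescent cells, was 2.01-fold and 1.72-fold. Of imprinted genes, 2 of 17 were called higher (3.46% of all genes were): Ndn, necdin, at 2.59-fold and 2.03-fold, and Slc38a4, an amino acid transporter, at least 2.00-fold proliferation, which lost the call in the slide block.

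Of 19 antigen presentation genes, 3 were called higher (15.8%, against 3.46% of all genes), H2-K2, Psmb9 and Tap1. Only H2-K2, a transcribed pseudogene of the non-coding set, kept the call with the slide block. Psmb9, an immunoproteasome subunit, and Tap1, the peptide transporter, are neighbours on chromosome 17 beside H2-DMb1, which was 0.66 above proliferation and 1.63 above day 5. Tap1 was 1.42-fold and 1.69-fold and lost its call under 9 of 20 settings. In the interferon response list 14 of 29 were called higher in the contrast, against 13.7% of all genes. 7 of the 29 stood above both neighbours on all arrays, against 8.24% of all genes. Only Oas2, an oligoadenylate synthetase, had a transient call, which the slide block did not keep. The list had medians of 0.84 from proliferation and 0.12 from day 5.

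Single higher genes stood in several other lists. Itgb3, the beta 3 integrin, was 1.91-fold proliferation and 2.81-fold day 5, and Smtn, a smooth muscle actin-binding protein, 1.72-fold and 1.54-fold, both kept with the slide block. Of 44 extracellular matrix genes, 3 were called higher (6.8%) and 1 lower (2.3%), shares near those of all genes (3.46% and 1.75%). Loxl2, a collagen cross-linking oxidase, was 2.79-fold and 2.83-fold and lost the call with the slide block, as did Lama5, a laminin chain, while Col18a1, a basement membrane collagen, was 1.46-fold and 2.35-fold and kept it but lost it under 13 of 19 settings in all. Igfbp3, an IGF carrier, was 5.95-fold proliferation but 2.13-fold day 5, and it lost the call with the slide block (adjusted p = 0.123 against day 5) and under 7 of 20 settings in all. Only 1 of its 3 proliferation arrays was well above background. Irs1, the insulin receptor substrate, Notch2, the receptor, Nfatc2, a calcineurin target, and Ciart, a clock repressor, were called as well. They were 1.51-fold, 1.94-fold, 1.48-fold and 1.60-fold proliferation, and none of them kept the call with the slide block. Irs1, Ciart and Notch2 lost it under 16 of 20, 15 of 20 and 12 of 19 other settings, and Nfatc2 under 1 of 20. Day 8 differed from proliferation by 0.86 log2 in Irs1, 0.51 in Notch2, -1.61 in Nfatc2 and -0.08 in Ciart. Every day 8 array of Irs1 stood above every day 2 array.

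Markers of other cell types gave 3 calls. Of these, Tubb3 alone kept its call with the slide block. Tubb3, the neuronal tubulin, was 0.92 above proliferation and 2.11 above day 5, 1 of 3 tested neural markers. Their mean relative log2 signal lay between 2.43 and 2.71 in proliferation, 3.14 and 3.27 at day 2 and 1.9 and 2.04 at day 5. The neural markers did not move alike. In Map2, day 2 differed from proliferation by 0.55 and from day 5 by -0.49, and in Gap43 by 0.39 and 2.14. Krt14, a basal keratinocyte keratin, was 0.79 and 1.81 higher, 1 of 4 keratinocyte markers. Their mean lay between 0.10 and 0.51 in proliferation, -0.85 and -0.54 at day 2 and -3.14 and -2.22 at day 5. Sprr2h, Sprr1a and Krt5 differed at day 2 from proliferation by -4.13, -0.73 and -0.12, and from day 5 by 2.67, 2.73 and 0.91. Tagln, a smooth muscle protein, was 1 of 3 such markers and lower, 0.623-fold proliferation and 0.563-fold day 5. Endothelial, macrophage, osteoblast and chondrocyte markers had 0 transient calls of 4, 3, 3 and 3 tested. The endothelial mean lay between -4.89 and -4.19 in proliferation, -4.09 and -3.88 at day 2 and -5.76 and -4.94 at day 5, so it was highest on the day 2 arrays. Its 4 markers did not move alike. Day 2 differed from proliferation and from day 5 by -1.06 and 1.86 in Kdr and by 2.54 and 0.16 in Tek. In Cdh5 the differences were 0.84 and 2.64, and in Pecam1 0.30 and 0.81. Pecam1 was well above background on 0 proliferation arrays. The part of such cells in the results was not tested.

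The genes lower at day 2 kept their calls less widely across settings. Of the 20 leading mRNA genes, 8 kept the call with the slide block and 5 under every other setting that gave a value: Ptgs2, Vmp1, Deptor, Zranb2 and Id3. Ptgs2, the inducible cyclooxygenase, read -0.80, -0.76 and -0.75 in proliferation, -2.83, -3.0 and -2.41 at day 2, -0.31, -1.03 and -1.32 at day 5 and -3.15, -2.70 and -2.79 at day 8. It fell to 0.254-fold proliferation and 0.276-fold day 5 (limma adjusted p = 0.000312 and 0.00022), and its recovery did not last, since day 8 lay -2.11 log2 from proliferation (adjusted p = 3.99e-05). Vmp1, an ER protein of autophagosome formation, was 0.325-fold and 0.327-fold, with day 8 back within 0.05 log2 of proliferation (-0.05).

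Deptor, an inhibitor of mTOR, read 0.70, 0.22 and -0.27, then -1.12, -1.15 and -0.89 at day 2, then 0.44, 0.79 and 0.37 at day 5, and 0.89, 0.92 and 0.64 at day 8. Day 2 was 0.415-fold proliferation and 0.333-fold day 5 (limma adjusted p = 0.00227 and 0.000324), below all 9 other arrays. Zranb2, a zinc finger splicing protein, was 0.359-fold and 0.458-fold. Klf9, a Krüppel-like factor, Ube2w, a ubiquitin-conjugating enzyme, and Npr3, the natriuretic peptide clearance receptor, were 0.342-fold, 0.447-fold and 0.447-fold proliferation and also kept the call with the slide block.

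The other 12 leading lower genes lost the call with the slide block. Among them Lpl, lipoprotein lipase, was 0.369-fold and 0.192-fold, Col5a2, a fibrillar collagen chain, 0.302-fold and 0.350-fold, Itgb6, an epithelial integrin, 0.443-fold and 0.271-fold, and Msrb3, a methionine sulfoxide reductase, 0.468-fold and 0.469-fold. Cnot4, Arl4a, Ppp3cb, Prorsd1 and Fsd1l were lost under 10 to 14 of their other settings. In Gm2016, day 2 array 1 read -4.76 and arrays 2 and 3 read -6.51 and -6.88, against -4.08 to -3.81 in proliferation. Within slides, day 2 differed from proliferation by -0.80 on the first and from day 5 by -2.46 on the second. Gm5662 and Slco5a1, a transporter-family gene, were 0.451-fold and 0.475-fold proliferation and rose past it by day 8, by 3.10 and 1.43 log2.

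Id and other repressor genes had 4 lower calls among 16 tested (25%, against 1.75% of all genes): Id1, Id2, Id3 and Zeb2. Id3 read 5.56, 5.98 and 6.07 in proliferation, 4.22, 3.91 and 3.89 at day 2, 5.19, 5.09 and 5.02 at day 5 and 4.59, 4.46 and 4.85 at day 8. Its recovery was partial: day 2 was 0.275-fold proliferation and 0.469-fold day 5 (limma adjusted p = 5.04e-05 and 0.000587), and day 8 lay -1.23 log2 from proliferation. Id1 was 0.252-fold and 0.612-fold, and Id2 0.130-fold and 0.660-fold, both with day 8 well under proliferation (-1.63 and -1.73 log2). Id2 and Id3 kept the call with the slide block. Zeb2, a zinc finger repressor, was well above background on 1 proliferation array and 0 day 2 arrays, so its size is uncertain. Without day 2 array 2, 2 of the 4 genes had a call.

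Myod1, the myogenic factor that Id proteins oppose, was itself slightly lower at day 2. It read 5.71, 6.11 and 6.18 in proliferation, 5.59, 5.45 and 5.38 at day 2, 6.83, 6.97 and 6.98 at day 5 and 6.40, 6.07 and 6.58 at day 8. The day 2 arrays lay below all others, but the margin against proliferation was narrow: 0.695-fold (limma adjusted p = 0.0367), lost under 11 of 20 other settings including the slide block, while the difference from day 5 was 0.365-fold (adjusted p = 7.38e-05).

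Secreted factors were a second lower group. 4 of 28 chemokine and cytokine genes were called lower (14.3%, against 1.75% of all genes) and 8 stood below both neighbours (3.92% of all genes did), with medians of -0.21 from proliferation and -0.52 from day 5. Ccl7, a monocyte chemokine, read 0.82, 0.65 and 1.02, then -0.65, -0.99 and -0.37 at day 2, then 0.12, -0.02 and 0.87 at day 5, and 0.24, 0.20 and 0.14 at day 8, 0.353-fold proliferation and 0.504-fold day 5 (limma adjusted p = 0.00109 and 0.00818), the 1 member also called with the slide block. Il6 was 0.483-fold and 0.361-fold, and Vegfa, the vascular growth factor, 0.741-fold and 0.612-fold. Ccl11 did not reach well above background in proliferation or at day 2, so its difference between them has no measured level on either side. Over arrays left out 1 at a time the list had 2 to 5 calls.

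Of TGF-beta and BMP genes, 3 of 33 were called lower (1.75% of all genes were), and Fst and Tgfbr1 lost the call with the slide block. Inhba, the activin A subunit, was 0.482-fold proliferation and 0.60-fold day 5 and kept the call with the slide block. Fst, follistatin, which binds activin, was 0.605-fold and 0.139-fold, and Tgfbr1, the type I receptor, 0.699-fold and 0.646-fold. Fst reached 2.49 log2 above proliferation by day 8, so its day 2 dip precedes a large rise. Without day 2 array 2, 1 of the 3 genes had a call. Receptor ligands Ereg and Hbegf, both of the EGF family, were 0.240-fold and 0.633-fold proliferation and 0.678-fold and 0.764-fold day 5, and neither kept the call with the slide block.

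Fat-handling and oxidative genes had 3 lower calls among 25 (1.75% of all genes were called lower): Lpl, Fabp3, the muscle fatty acid-binding protein, and Ppargc1b, a coactivator of mitochondrial genes. Fabp3 was 0.564-fold proliferation and 0.387-fold day 5, and Ppargc1b 0.648-fold and 0.486-fold. All 3 lost the call with the slide block. Tet2, a methylcytosine dioxygenase, read -0.74, -0.86 and -1.05, then -1.83, -1.95 and -1.74 at day 2, then -1.13, -1.15 and -0.93 at day 5, and -0.32, -0.45 and -0.61 at day 8. It was 0.514-fold proliferation and 0.585-fold day 5 (limma adjusted p = 0.000602 and 0.00127), without overlap, and kept the call in the slide block. Musk, the agrin receptor kinase, Lgr4, an R-spondin receptor, and Cebpg, a bZIP factor, were 0.670-fold, 0.724-fold and 0.732-fold proliferation, calls that the slide block ended. Wif1, a secreted Wnt inhibitor, and Neb, nebulin of the thin filament, were not well above background in proliferation or at day 2.

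**Figure D4:**
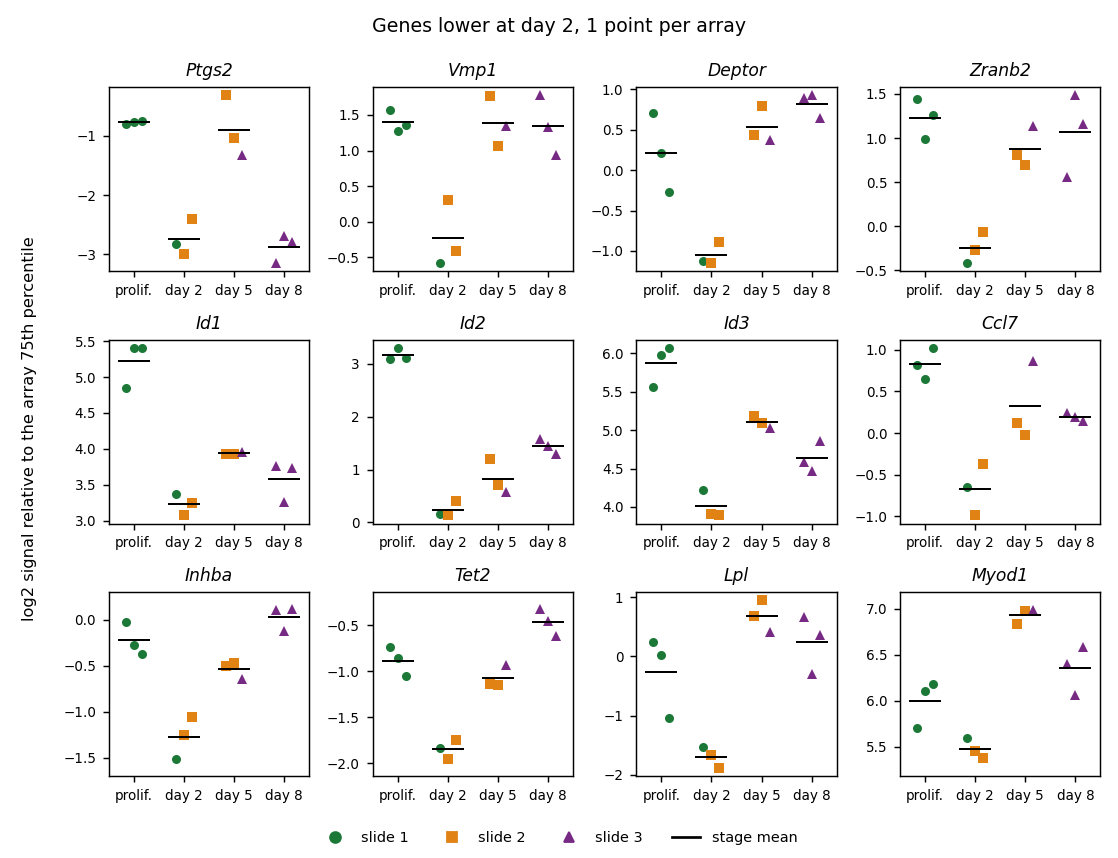
Relative log2 signal of 12 genes lower at day 2 on every array (marks as in the plot of sterol genes). Day 2 is below all proliferation and day 5 points in each panel; Ptgs2 is low again at day 8, and Myod1 is barely below proliferation.

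In the non-coding set, the leading higher probes were AK019027, H2-K2, uc008eyb and AK009126, and all 4 kept the call with the slide block, where day 2 array 1 alone stands against proliferation. For AK019027 that array read -4.56 and the other day 2 arrays -7.20 and -6.95, so its kept call rests on 1 high array. H2-K2, a transcript of the MHC class I K region, read -8.27, -7.04 and -7.24, then -4.11, -4.34 and -4.59 at day 2, then -6.81, -6.50 and -6.07 at day 5, and -6.19, -6.28 and -6.17 at day 8. Its day 2 mean was 4.32-fold that of day 5 (limma adjusted p = 0.000301). Only 1 of its 3 proliferation arrays was well above background, so the size against proliferation is uncertain. Related class I genes could contribute to its probe. AK009126 was 3.5-fold and 14.8-fold, and AK019027 was at least 1.24-fold and at least 2.16-fold. The leading lower probes were uc007ojn, AK040997, AK011567 and uc008vaz. AK040997 read 0.31, -0.46 and -1.13, then -2.86, -2.10 and -2.08 at day 2, then 1.21, 0.43 and -0.14 at day 5, and -1.21, -1.54 and -2.15 at day 8, 0.264-fold and 0.139-fold, and kept the call under every other setting that gave a value. uc008vaz was 0.208-fold and 0.339-fold and also kept it with the slide block.

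Called genes sometimes lay side by side. Among 13720 tested genes with a known place in the GRCm38.p6 gene order, 38 adjacent pairs were both called higher and 8 both lower. Besides the granzyme, Mvk and MHC neighbours named above, these included Gstm7 and Gstm6, glutathione transferases at 1.52 and 1.54 log2 above proliferation, H2ac8 and H2bc8, Oas2 and Oas1c, and Ifnz, an interferon zeta gene, with 4 predicted genes beside it. Ccl7 and Ccl11 were a lower pair. Several of these pairs are close copies, and their number was not compared with that of other genes.

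Of the 40 gene lists, 26 had at least 1 transient call, and 24 of these held 1 to 4. The lists with 0 transient calls were antioxidant genes, complement and acute phase, control genes, cyclins and CDKs, FOXO and atrophy, heat shock, immediate early genes, named lncRNAs, p53 and apoptosis, proteases, ribosome biogenesis, S phase, satellite and reserve cell genes, and unfolded protein response. In the last of these, 5 of 18 genes stood above both neighbours on all arrays, against 8.24% of all genes, without passing the test. Vegfa is also the called member of the glycolysis and hypoxia list.

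**Figure D5:**
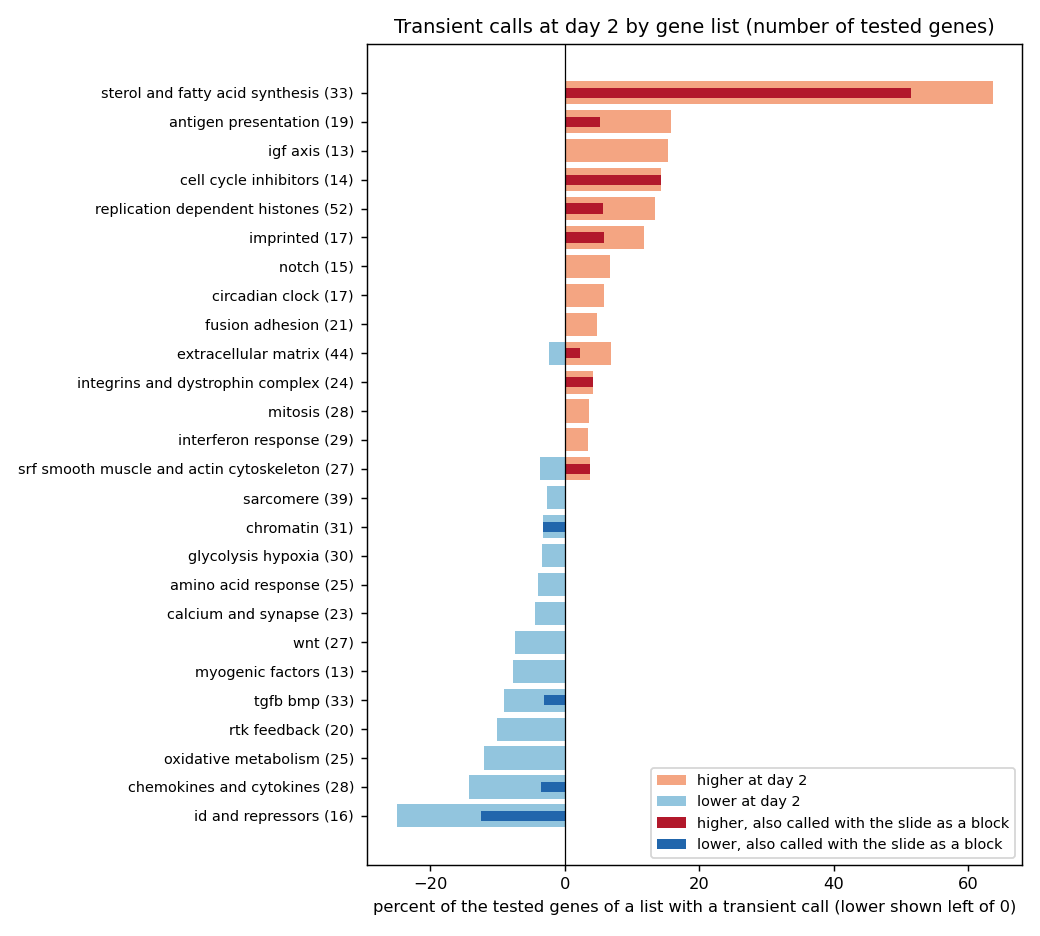
Percent of each list's tested genes with a transient call at day 2, higher to the right of 0 and lower to the left, for the 26 lists with a call (number of tested genes in brackets); the narrow dark bars count genes called also with the slide as a block. Sterol and fatty acid synthesis reaches 63.6%, and Id and repressor genes reach 25% on the lower side.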

How the data were processed

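RNA of C2C12 cultures was labelled with Cy3 and hybridised to one-colour Agilent mouse arrays for mRNAs and long non-coding RNAs. Spot intensities are as deposited by the authors, and the submitters' processing notes name Agilent Feature Extraction 10.5.1.1 as the software; the processed signal was used. The deposited intensity values were turned here into log2 signal minus each array's 75th percentile, spots of a probe averaged, and control spots set aside. A probe was tested if some stage had it well above background on each of its 3 arrays. Stage means of 12 arrays were fitted with limma 3.58.1 in R 4.3.3, with Benjamini-Hochberg adjustment over all 22959 tested probes, and every adjusted p is from such a fit.

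Genes were named through RefSeq's GRCm38.p6 table, and the array files give mm9 as their build. The members, 40 gene lists and cell type markers were chosen with earlier results of these data known, and give no independent support. The text names genes from the 20 leading mRNA and 4 leading non-coding probes in each direction, by the smaller of both differences, and up to 4 called members of each list. Some genes that this rule names are not reported here. Further sterol genes, genes without a call, marker genes and neighbours were chosen after their values were seen.

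Alternatives were other scaling, normexp background correction (on the median signal, since the files used hold no mean signal), no filter, 9 arrays only, slide and replicate blocks, non-uniform spots left out, a minimum difference, and each array left out. Replicate numbers do not pair the arrays: 5 of 18 same-numbered pairs had a correlation of deviations over 0.1 (range -0.155 to 0.243). The scripts were tested on simulated data. Saturated spots were 0, and the number of arrays limits the precision.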

Additional observations from a re-analysis of the deposited data

How the results depend on the processing

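Scaling to the 75th percentile of probes above background on all arrays gave 550 transient probes higher and 578 lower (48.8% higher, against 58.6%), and quantile normalization 613 and 562, so which direction held more probes depends on the scaling. With normexp, 682 were higher and 197 lower, and the contrast had 1157 lower. The transient count was 403 higher and 231 lower without a filter on dim probes (contrast 1668 and 1210), 383 and 209 without non-uniform spots (contrast 1452 and 934), which leave many probes untested, 249 and 117 with the slide as a block, and 141 and 91 where both differences had to reach 1 log2. Leaving out 1 array at a time gave 496 to 690 transient probes higher and 325 to 512 lower, and 1767 to 2777 higher and 1239 to 2113 lower in the contrast. The lowest of these counts came without day 2 array 3. With the replicate number as a block, the contrast had 2436 higher and 1873 lower and transient calls were 610 and 445. The numbers do not pair the arrays, and a number's own partner correlated best in 7 of 18 pairs. Under normexp 3 dim genes changed sign in the contrast: Ccl11 (0.13), Wif1 (0.11) and Neb (0.08). The cause of these shifts was not tested. Of 115 named genes, 60 stayed on their side of the threshold with the slide block and 103 with the replicate block. The sterol list kept 17 to 22 calls wherever non-uniform spots were kept. Signal over background limits the dim genes: 14 of the 475 lower probes were well above background on none of the day 2 arrays.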
